A study of Fundulus heteroclitus with 20 samples.

Results

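The genes described here are the copies annotated as macrophage mannose receptor 1-like in the brain of the mummichog (Fundulus heteroclitus), an estuarine killifish. They were chosen by annotation alone, as the table entries whose description reads exactly macrophage mannose receptor 1-like, and 14 of the 13679 genes in the table met that rule. The rule itself used no expression value, but earlier results of these data were known when it was fixed. The gene annotated as mannose receptor C-type 1 (mrc1), 10 genes annotated as C-type mannose receptor 2-like and 4 annotated as secretory phospholipase A2 receptor-like carry other descriptions and served only for comparison.

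RNA-seq libraries were made from the midbrain and diencephalon of 10 adult mummichogs of unstated sex, each giving an intact and a lesioned hemisphere, so that 20 libraries formed 2 groups of 10 paired within fish. A needle lesion through the optic tectum, the tegmentum and the hypothalamus was made under 2-phenoxyethanol anaesthesia, and tissue was taken 1 h later. The intact group is the contralateral side of the same injured brain, so both groups share the fish, the anaesthesia and the surgery, and no library came from an uninjured fish. The sample labels place every intact sample on the left and every lesioned sample on the right, whereas the study's methods describe both sides as lesioned in equal numbers, so side and lesion cannot be told apart from the labels.

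The macrophage mannose receptor is a transmembrane C-type lectin. It binds glycans that end in mannose, fucose or N-acetylglucosamine, on microbes and on the body's own glycoproteins, and carries them into endosomes. In the mammalian brain it is known from perivascular and meningeal macrophages more than from resting microglia. In zebrafish, mrc1a is widely used as a marker of lymphatic and venous endothelium and of the perivascular cells of the meninges that descend from endothelium. Names ending in -like were assigned by similarity, and such a name does not show that a copy does what the mammalian receptor does.

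Gene counts summed to between 9213580 and 11070103 per library, with a median of 10110917.5 in the intact and 10175715.5 in the lesioned group. These totals are well below the mapped reads per sample that the study reports, for a reason not examined here. Markers of brain tissue were abundant. In the intact hemispheres neurofilament light polypeptide-like (LOC105920195), an axonal filament protein, stood at 9748 ± 1666 CPM (SD, n = 10) and myelin basic protein-like (LOC105933411) at 9522 ± 1202 CPM (SD, n = 10). CPM are counts per 1000000 counts of a library after scaling, over the genes kept by the filter on low counts. A library with a count of 0 for a gene allows a level of up to 0.271 to 0.326 CPM, depending on its total, and this limit covers counting error only.

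All 14 copies had at least 1 count, and nearly all of their reads fell on a pair of them. LOC105920253 drew 12831 of the 15039 counts summed over the 14 copies and the 20 libraries, or 85.3%. LOC105920249 followed with 1907 counts, or 12.7%, and LOC105924107 with 196 counts, or 1.30%. The other 11 copies held between 1 and 32 counts each, 105 in all, or 0.698% of the total. LOC105920253 and LOC105920249 were the 2 copies that passed the filter on low counts, and the remaining 12 did not. These shares describe reads and not transcripts per gene, because copy lengths were not analysed here. Copies of near-identical sequence can also gain or lose reads to one another when reads are assigned, so every value of a single copy carries that uncertainty.

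**Figure D1:**
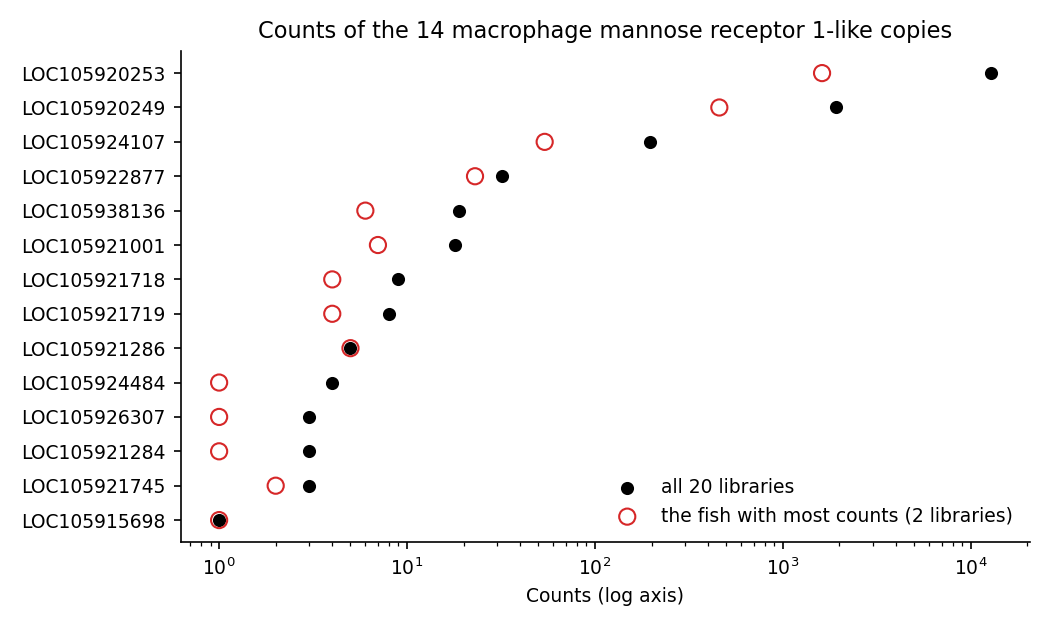
Counts of the 14 macrophage mannose receptor 1-like copies on a log x axis, 1 row per copy, with a filled point for the sum over all 20 libraries and an open circle for the sum over the 2 libraries of the fish with most counts. LOC105920253 stands at 12831 counts and LOC105920249 at 1907, whereas 11 copies hold 32 counts or fewer, and the circle of LOC105922877 lies near its point, with 23 of its 32 counts in fish 9.

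The 2 copies that passed the filter lie close together in the genome. In the RefSeq annotation of assembly MU-UCD_Fhet_4.1, which is a later assembly than the one the reads were aligned to and in which 7 of the 14 copies were found by identifier, LOC105920249 and LOC105920253 sit 2 places apart with a single gene between them that was not analysed here. A calcium channel beta subunit gene, LOC105920248 (voltage-dependent L-type calcium channel subunit beta-4-like), lies 2 places before LOC105920249. mrc1, which that annotation names mrc1a, lies on another chromosome. There another calcium channel beta subunit gene, cacnb2a, is 2 places after mrc1. Collectin subfamily member 12 (LOC105918164), a scavenger receptor with a collagen stem, is 3 places before mrc1. LOC105921286 and LOC105924484 lie on a further shared chromosome, neither among the 3 genes next to the other. LOC105926307 and LOC105938136 each stand on a chromosome to which no other matched copy was assigned. The remaining matched copy, LOC105921284, had an unknown chromosome and was listed there as a miscellaneous RNA, not as protein coding.

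LOC105920253, the copy with the most reads, was after scaling slightly lower in the lesioned than in the intact hemisphere of every fish. Its level in the intact hemispheres was lowest at 40.5 CPM, had a median of 70.0 CPM and was highest at 81.9 CPM. In the lesioned hemispheres the lowest level was 35.9 CPM, the median 60.9 CPM and the highest 78.5 CPM. The ranges of the groups overlapped almost fully, and the difference appeared only within fish. The means were 66.7 ± 15.0 CPM in the intact and 59.5 ± 12.5 CPM in the lesioned hemispheres (SD, n = 10 each), a lesioned level of 0.894 of the intact one. The paired log2 change was -0.16 with a standard error of 0.04, and it passed the cutoff of 0.1 with an adjusted p of 0.0805 (edgeR's quasi-likelihood test with fish as a block, Benjamini-Hochberg over 10513 genes).

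Few genes were lower after the lesion by that test. Of all tested genes 1.38% were called in either direction at 0.1, and 0.0951%, or 10 genes, were called lower, of which LOC105920253 was one. It stood 129th of 10513 genes by the p-value of this comparison. At the more permissive cutoff of 0.4, 10.1% of tested genes were called in either direction and 3.97% were called lower, and LOC105920249 was not among those called. A decrease in all 10 fish was shared by 24 genes, or 0.228% of those tested. The two-sided exact sign-flip permutation test over the 10 within-fish log2 ratios of LOC105920253 gave p = 0.00195, which is the smallest that 10 pairs allow.

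The size of the decrease varied between fish. The log2 ratio of lesioned over intact for LOC105920253 was -0.37 in fish 9, where the level went from 81.9 to 63.3 CPM, and -0.35 in fish 8, where it went from 77.9 to 61.2 CPM. At the other end the ratio was -0.01 in fish 3, with 61.0 CPM in the intact and 60.6 CPM in the lesioned hemisphere, and -0.04 in fish 4, with 80.5 and 78.5 CPM. Fish 2, 3 and 5 had slightly more raw counts in the lesioned hemisphere and were lower only after scaling. Their counts went from 439 to 440, from 611 to 624 and from 724 to 733. Their log2 ratios were -0.09, -0.01 and -0.22. The median ratio over the 10 fish was -0.13, beside a median log2 change of -0.01 over all tested genes. In bulk tissue, fewer cells that carry a transcript and less of it per cell cannot be told apart.

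The call for LOC105920253 changed with the pairing, with the test and with the fish left out. Without the fish block the log2 change was -0.17 with an adjusted p of 1.00 (edgeR), and with DESeq2 it was -0.16 with an adjusted p of 0.125. Leaving out fish 1, 5, 6, 7, 8, 9 or 10 in turn raised the adjusted p above 0.1, to at most 0.216 (edgeR) without fish 8. The call was kept without fish 2, 3 or 4 (adjusted p = 0.0994, 0.0449 and 0.0857, edgeR). The log2 change stayed between -0.18 and -0.14 over all 10 omissions.

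**Figure D2:**
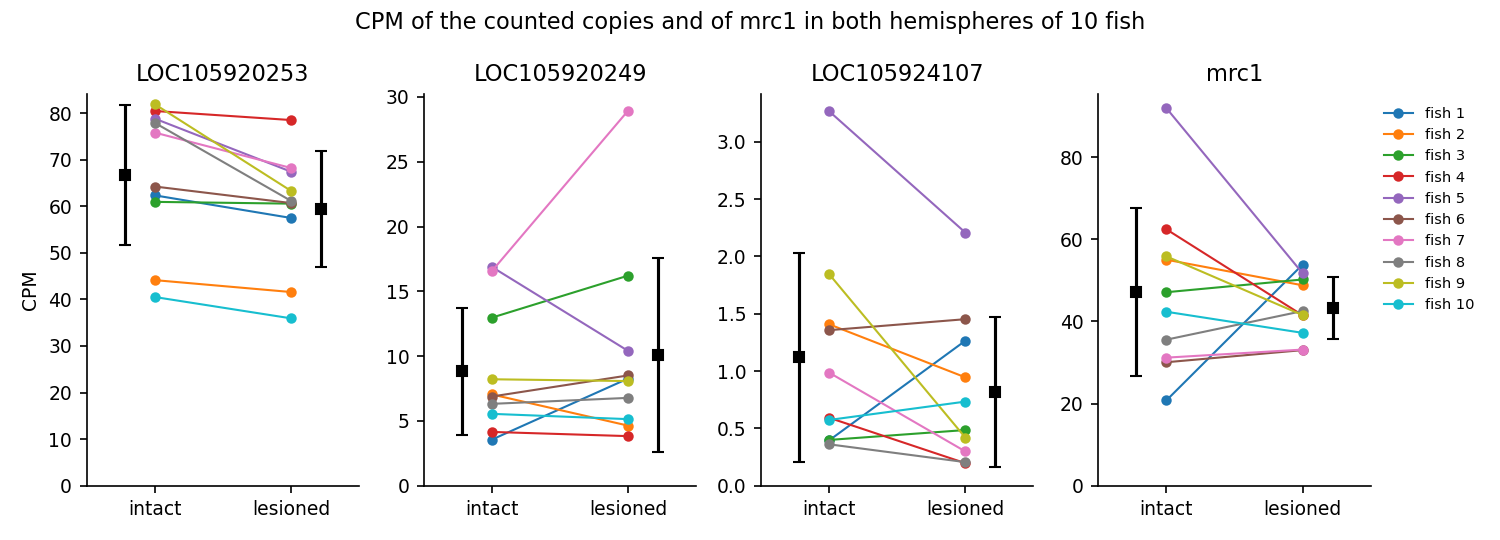
Levels of LOC105920253, LOC105920249, LOC105924107 and mrc1 in CPM, with 1 line per fish joining its intact to its lesioned hemisphere and bars for the mean and SD (n = 10 fish). All 10 lines of LOC105920253 fall, from a mean of 66.7 to 59.5 CPM, whereas those of LOC105920249 and mrc1 fall in 5 fish and rise in 5.

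LOC105920249, the neighbouring copy, showed no shared direction. Its level in the intact hemispheres was lowest at 3.56 CPM, had a median of 6.96 CPM and was highest at 16.9 CPM, and in the lesioned hemispheres the corresponding levels were 3.82, 8.17 and 28.9 CPM. It was lower in the lesioned hemisphere of 5 fish and higher in the other 5, and the groups overlapped. The means were 8.81 ± 4.90 CPM in the intact and 10.1 ± 7.51 CPM in the lesioned hemispheres (SD, n = 10 each), and the log2 change of 0.13 with a standard error of 0.16 did not pass the test (adjusted p = 0.817, edgeR). Leaving out single fish moved it from 0.03 without fish 1 or fish 7 to 0.20 without fish 2 and 0.24 without fish 5, never past the test.

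Single fish moved far in opposite directions at LOC105920249. In fish 1 the level was 3.56 CPM in the intact and 8.27 CPM in the lesioned hemisphere, a log2 ratio of 1.17. In fish 7 it was 16.6 and 28.9 CPM, a log2 ratio of 0.80. In fish 5 it was 16.9 and 10.4 CPM, a log2 ratio of -0.69, and in fish 2 it was 7.04 and 4.63 CPM, a log2 ratio of -0.58. Fish 7, 5 and 3 held the highest intact levels and also the highest lesioned ones. Counts behind these values ran from 36 to 291 per library, so that counting error is larger than for LOC105920253.

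Whether the neighbouring copies differed in their response to the lesion was compared within fish, as the log2 ratio of LOC105920253 minus that of LOC105920249. This difference had a mean of -0.28 ± 0.56 (SD, n = 10 fish), ran from -1.29 in fish 1 to 0.50 in fish 2, and was below 0 in 7 fish. The two-sided exact sign-flip permutation test gave p = 0.172 for this 1 pair, so a difference between the copies was not detectable against the spread of LOC105920249. That one copy passed the test of the lesion and the other did not is therefore not evidence that they differed. The mean difference was -0.16 without fish 1 and -0.36 without fish 2.

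LOC105924107, the third copy by reads, lay below the filter and was fitted only together with all 13392 genes that had a count. It was found in all 20 libraries, with 4 to 30 counts and a median of 8 in the intact and 2 to 24 counts and a median of 6 in the lesioned hemispheres. Its levels were 1.12 ± 0.912 and 0.821 ± 0.655 CPM (SD, n = 10 each), lower in 6 fish and higher in 4. The log2 change was -0.43 with a standard error of 0.31 and an adjusted p of 0.732 (edgeR without a filter). Fish 5 had the highest count in both hemispheres, 30 and 24.

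The copies differed more between fish than between the hemispheres of a fish. For LOC105920253 the quasi-likelihood test of the 9 fish coefficients gave an adjusted p of 6.12e-06, and for LOC105920249 it gave 0.000556 (edgeR, Benjamini-Hochberg over 10513 genes). A difference between fish was common in these libraries, since 63.4% of all tested genes passed the same test, so the 2 of 2 copies called are not a result about the copies. The size of the spread was large for their count. It was taken from the mean of both hemispheres and so also holds part of the difference between them. mrc1 stood at a similar place, but its SD within fish was 0.42. Its test between fish was not passed (adjusted p = 0.128, edgeR). The SD between fish of the mean log2 CPM of both hemispheres was 0.34 for LOC105920253, above that of 94.5% of the 2142 genes whose mean count lay within 1.5-fold of its own, for which the median was 0.12. For LOC105920249 the SD was 0.76, above that of 94.8% of 1431 such genes, with a median of 0.25.

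Within fish the copies behaved differently. The SD within fish of LOC105920253 was 0.09, above that of 51.5% of genes of like count, for which the median was also 0.09. That of LOC105920249 was 0.40, above that of 93.6% of genes of like count, with a median of 0.18. The level of LOC105920253 was thus set apart by fish and was as even between hemispheres as that of other genes, whereas LOC105920249 varied widely in both ways. These percentages describe the libraries and are not tests.

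**Figure D3:**
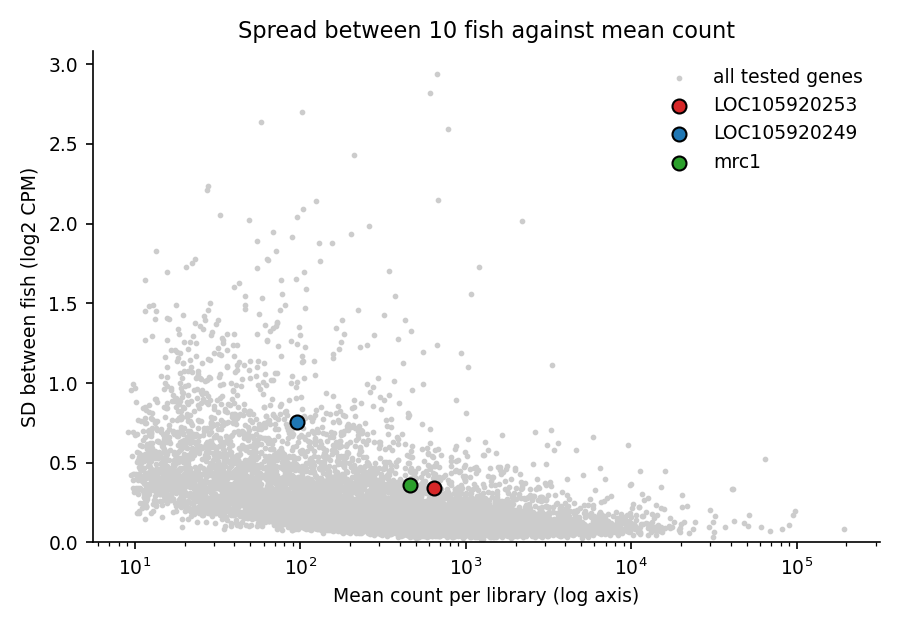
SD between the 10 fish of the mean log2 CPM of both hemispheres (y axis) against the mean count per library on a log x axis, for all tested genes in grey with LOC105920253, LOC105920249 and mrc1 marked. LOC105920253 at 0.34, LOC105920249 at 0.76 and mrc1 at 0.36 lie in the upper part of the cloud at their count. The SD also holds part of the difference between hemispheres, which was large for LOC105920249 and mrc1.

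Fish 10 and fish 2 carried the lowest levels of LOC105920253 in both hemispheres. Fish 10 had 40.5 CPM in the intact and 35.9 CPM in the lesioned hemisphere and fish 2 had 44.1 and 41.6 CPM, while the other 8 fish lay at 57.5 CPM or above. The highest level was 2.02-fold the lowest among the intact and 2.18-fold among the lesioned hemispheres. For LOC105920249 these ratios were 4.74 and 7.57. The lowest level of LOC105920249 was in fish 1 in the intact (3.56 CPM) and in fish 4 in the lesioned group (3.82 CPM). In the lesioned group fish 2 and fish 10 came next above fish 4, at 4.63 and 5.13 CPM. In the intact group fish 10 was at 5.54 CPM, below the median of 6.96 CPM, and fish 2 at 7.04 CPM, just above it.

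The level of LOC105920253 in the intact hemisphere followed that in the lesioned hemisphere over the 10 fish. Pearson's r was 0.94 (permutation p = 0.00019, adjusted p = 0.00361 over 19 relations computed) and Spearman's rho was 0.87 (permutation p = 0.00201, adjusted p = 0.0382). Without the 2 fish farthest from the median, r was 0.66 over 8 fish with an exact permutation p of 0.0546, so the strength of the relation rested in part on fish 10 and fish 2. For LOC105920249, r was 0.76 (permutation p = 0.0102, adjusted p = 0.0644) and rho was 0.66 (permutation p = 0.0436, adjusted p = 0.276), and without the 2 farthest fish r was 0.65 (exact permutation p = 0.0823). Neither relation for LOC105920249 passed 0.05 after adjustment. Over the fish means, LOC105920253 and LOC105920249 had an r of 0.31 (permutation p = 0.381, adjusted p = 0.658), which is not detectable with 10 fish.

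mrc1, the gene that carries the name of the mammalian receptor and is mrc1a in the later annotation, was measured beside the copies. Its level in the intact hemispheres was lowest at 20.8 CPM, had a median of 44.7 CPM and was highest at 91.9 CPM, and in the lesioned hemispheres the corresponding levels were 33.0, 42.0 and 53.8 CPM. Its log2 change was -0.05 with a standard error of 0.16 (adjusted p = 0.934, edgeR), lower in 5 fish and higher in 5, and it became -0.20 without fish 1, 0.01 without fish 4 and 0.04 without fish 5. Its SD within fish was 0.42, above that of 98.8% of 2260 genes of like count. Its SD between fish was 0.36, above that of 93.9% of the same genes. The test between fish gave an adjusted p of 0.128 (edgeR), and 0.0114 without fish 1.

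The within-fish changes of LOC105920249 and mrc1 went the same way in all 10 fish. Both rose in fish 1, 3, 6, 7 and 8 and both fell in fish 2, 4, 5, 9 and 10. This comparison was chosen after the values were seen, and 0.133% of the other 10512 tested genes matched mrc1 in sign in every fish. In fish 1, mrc1 went from 20.8 to 53.8 CPM, a log2 ratio of 1.37, beside 1.17 for LOC105920249. In fish 5, mrc1 went from 91.9 to 51.7 CPM, a log2 ratio of -0.83, beside -0.69. Pearson's r of the log2 ratios was 0.84 (permutation p = 0.00237, adjusted p = 0.0225 over 19 relations) and rho was 0.79 (permutation p = 0.00888, adjusted p = 0.0844). Without the 2 farthest fish r was 0.70 with an exact permutation p of 0.0531, so the relation no longer passed 0.05 without them. In likeness to the log2 ratios of mrc1, LOC105920249 stood 67th of 10512 genes. Both genes were read from the same libraries and share their scaling.

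LOC105920253 did not share that pattern. Its log2 ratio had an r of 0.14 with that of mrc1 (permutation p = 0.696, adjusted p = 0.778) and of 0.16 with that of LOC105920249 (permutation p = 0.656, adjusted p = 0.778). It matched mrc1 in sign in 5 of 10 fish, as it fell in all of them. LOC105924107 matched mrc1 in 7 fish, with an r of 0.70 (permutation p = 0.0272, adjusted p = 0.129) that dropped to 0.26 without the 2 farthest fish and so rested on them.

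**Figure D4:**
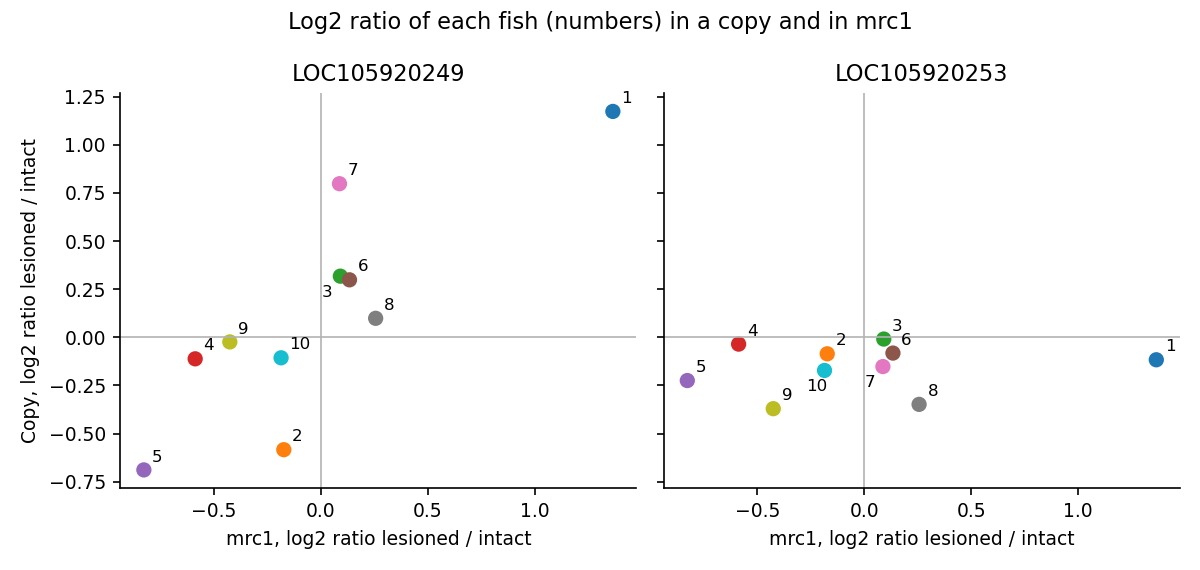
Log2 ratio of lesioned over intact in each of the 10 fish for mrc1 (x axis) against LOC105920249 and LOC105920253 (y axis of 1 panel each), with points numbered by fish. LOC105920249 follows mrc1 in sign in all 10 fish (r = 0.84), whereas LOC105920253 lies below 0 throughout (r = 0.14).

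Over the 20 libraries, the genes whose log2 CPM was most like that of LOC105920253 were ist1 (r = 0.89), a factor that works with the ESCRT-III membrane scission complex, an inter-alpha-trypsin inhibitor heavy chain H3-like gene (LOC105915496, r = 0.84) and mapre1 (r = 0.84), a protein that binds microtubule ends. For LOC105920249 they were a zinc finger protein 385B-like gene (LOC105919501, r = 0.83), slc52a3 (r = 0.80), a riboflavin transporter, and nelfb (r = 0.78), a subunit of the negative elongation factor. LOC105920249 itself stood 1815th of 10512 genes in likeness to LOC105920253 (r = 0.27), and mrc1 stood 3852nd (r = 0.10). These values are descriptions of paired libraries and carry no test.

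Each of the 11 copies with few reads was detected in some of the libraries only. In 4 of them a single fish supplied over 50% of the counts, among them one copy with 1 count and another with 3. LOC105922877 had 32 counts in 8 libraries, and fish 9 held 23 of them, 9 in the intact and 14 in the lesioned hemisphere. Together these were 71.9% of its counts, and the presence in both hemispheres of that fish shows that they did not come from 1 library. LOC105922877 was also the only one of these 11 copies to pass the test between fish in the fit without a filter (adjusted p = 0.0134, edgeR). In that fit 53.1% of 13392 genes passed, and LOC105924107 passed as well (adjusted p = 0.0232, edgeR).

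LOC105938136 had 19 counts in 9 libraries, with 2 and 4 in the hemispheres of fish 6. LOC105921001 had 18 counts in 9 libraries, 7 of them in the lesioned hemisphere of fish 5 and none in its intact one. LOC105921718 had 9 counts in 6 libraries and LOC105921719 had 8 in 5 libraries. All 5 counts of LOC105921286 came from the intact hemisphere of fish 8. LOC105924484 had 4 counts in 4 intact libraries, LOC105921284 had 3 in 3 intact libraries, and LOC105921745 had 3 in 2 lesioned libraries. LOC105926307 had 3 counts and LOC105915698 had 1. The 11 copies together had 50 counts in the intact and 55 in the lesioned group. Counts this low cannot show a change by the lesion, and in the fit without a filter none of the 11 passed that test or had an unadjusted p under 0.05, that is 0 of 11 by either measure (edgeR). Of all 13392 genes in that fit 131 passed. Their share with an unadjusted p under 0.05 is not given here, so 0 of 11 by that measure has no background.

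Summed over the 14 copies, the level was lowest at 46.8 CPM, had a median of 80.0 CPM and was highest at 99.3 CPM in the intact hemispheres. In the lesioned hemispheres the corresponding levels were 42.2, 72.6 and 97.9 CPM. The sum was lower in the lesioned hemisphere of 7 fish with TMM, the scaling used throughout, and of 8 fish with scaling by total counts. With TMM, where LOC105920253 fell in all 10, the 3 fish in which the sum did not fall were fish 1, 3 and 7. They were the 3 with the largest rises of LOC105920249.

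Related lectins and receptors formed a list of 67 genes outside the 14 copies, of which 15 passed the filter and 3 were at 0 counts in every library. In the test of the lesion 1 of the 15 was called higher, none was called lower, and 2 had an unadjusted p under 0.05 (edgeR), beside 1.28% of all tested genes called higher and 11.7% with an unadjusted p under 0.05. DESeq2 called 1 higher and 1 lower, beside 165 higher and 10 lower among all 13392 genes with a count. The median log2 change was -0.02. The gene called higher, LOC105915302 (P-selectin glycoprotein ligand 1-like), belongs to the ligands of selectins and is not itself a lectin. It rose by 0.44 on the log2 scale with a standard error of 0.10 (adjusted p = 0.0495, edgeR), from 6.99 ± 1.22 to 9.54 ± 1.89 CPM (SD, n = 10 each), higher in 9 of 10 fish. Without fish 2, 7, 8 or 10 in turn, or without the fish block, it no longer passed.

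Among the other members of that list, clec2d, a C-type lectin domain gene, stood at 464 ± 66.7 CPM in the intact and 429 ± 48.0 CPM in the lesioned hemispheres (SD, n = 10 each), lower in 9 of 10 fish. Its log2 change of -0.11 had an adjusted p of 0.149 in edgeR and of 0.0540 in DESeq2, and in edgeR of 0.0980 without fish 3 and 0.0950 without fish 7. clec16a, which despite its name acts in autophagy and mitophagy in mammals, had a log2 change of 0.03 (adjusted p = 0.689, edgeR). None of the 10 C-type mannose receptor 2-like genes and none of the 4 secretory phospholipase A2 receptor-like genes passed the filter. Like LOC105922877, the C-type mannose receptor 2-like gene LOC105924076 had most of its reads in 1 fish, with 23 of 27 counts in fish 7, named here after its values were seen.

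Markers of cells that may carry mannose receptors were read in the same fit. Of 20 tested macrophage and microglia markers 1 was called lower and none higher (edgeR), 6 had an unadjusted p under 0.05, and 16 of the 20 log2 changes were negative with a median of -0.10. Over all tested genes 0.0951% were called lower, 11.7% had an unadjusted p under 0.05 and 54.9% had a negative log2 change, with a median of -0.01. The marker called was gpr34, a receptor for lysophosphatidylserine on microglia, at 29.4 ± 6.40 CPM in the intact and 20.3 ± 2.19 CPM in the lesioned hemispheres (SD, n = 10 each). It fell by 0.51 on the log2 scale with a standard error of 0.08 (adjusted p = 0.00272, edgeR), in 10 of 10 fish. lcp1, an actin-bundling protein of leukocytes, had a log2 change of -0.17 (adjusted p = 0.162, and 0.0783 without fish 3, edgeR) and a csf1 receptor gene (LOC105918495) one of -0.10 (adjusted p = 0.257, edgeR). All 6 markers with an unadjusted p under 0.05 were lower, and the rest of them are named after their values were seen. The log2 change of csf1r was -0.26 (unadjusted p = 0.00185, adjusted p = 0.122, edgeR), lower in 9 fish. That of c1qa was -0.18 (adjusted p = 0.165, edgeR). That of LOC105938255 (complement C1q subcomponent subunit C-like) was -0.25 (adjusted p = 0.311, edgeR). DESeq2 called 2 lower, gpr34 and lcp1, beside 10 lower among all 13392 genes with a count. Of the 22 listed markers 1, a macrophage receptor MARCO-like gene, was at 0 counts in all libraries.

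The summed level of the 22 macrophage and microglia markers ran from 484 to 859 CPM with a median of 719 CPM in the intact, and from 478 to 773 CPM with a median of 687 CPM in the lesioned hemispheres. The sum was lower in the lesioned hemisphere of 9 fish, with a median log2 ratio of -0.16, beside 10 fish and a median of -0.13 for LOC105920253. The log2 ratio of LOC105920253 had an r of 0.65 with that of the sum (permutation p = 0.0430, adjusted p = 0.163) and a rho of 0.45 (permutation p = 0.192, adjusted p = 0.609), and r was 0.45 without the 2 farthest fish. With the same sum, r was 0.44 for mrc1 (permutation p = 0.198, adjusted p = 0.507). For LOC105920249 it was 0.24 (permutation p = 0.501, adjusted p = 0.687). The part of these markers in the decrease of LOC105920253 was not tested.

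Of 12 tested markers of endothelium and lymphatic endothelium, 1 was called higher and none lower, 3 had an unadjusted p under 0.05 (edgeR), and the median log2 change was -0.02. Of all tested genes 1.28% were called higher and 11.7% had an unadjusted p under 0.05. Beside 165 genes called higher among all 13392 with a count, DESeq2 called the same 1 marker. It was LOC105915527 (claudin-5-like), a tight junction protein, which rose by 0.59 on the log2 scale with a standard error of 0.10 (adjusted p = 0.00891, edgeR), from 12.0 ± 5.04 to 18.4 ± 8.23 CPM (SD, n = 10 each), in 10 of 10 fish. Without the fish block its adjusted p was 1.00 (edgeR). The other markers with an unadjusted p under 0.05 went the other way, and are named here after their values were seen. The second claudin 5 entry, cldn5, stood at 160 ± 13.7 CPM in the intact and 147 ± 18.4 CPM in the lesioned hemispheres (SD, n = 10 each). Its log2 change was -0.13 (unadjusted p = 0.0273, adjusted p = 0.353, edgeR), lower in 7 fish. That of egfl7 was -0.10 (unadjusted p = 0.0351, adjusted p = 0.381, edgeR). kdr and tie1, receptors of blood vessel endothelium, had log2 changes of -0.02 (adjusted p = 0.902) and -0.03 (adjusted p = 0.822, both edgeR). The summed level of the 15 listed markers ran from 716 to 907 CPM in the intact and from 696 to 916 CPM in the lesioned hemispheres, lower in 6 fish. In the intact hemispheres kdr, cldn5, tie1 and egfl7 had means of 185, 160, 160 and 113 CPM. Against these, flt4 and lyve1 had means of 11.3 and 0.602 CPM and weighed little in the sum. A correlation with the sum therefore does not show whether a gene followed flt4 or lyve1. Over fish, the log2 ratio of the sum had an r of 0.39 with that of LOC105920249 (permutation p = 0.267, adjusted p = 0.507) and of 0.15 with that of mrc1 (permutation p = 0.626, adjusted p = 0.778). With that of LOC105920253 r was 0.24 (permutation p = 0.506, adjusted p = 0.687). Without the 2 farthest fish of each gene, r was 0.56 for LOC105920249, -0.44 for mrc1 and 0.49 for LOC105920253. Of this list flt4, a receptor of lymphatic endothelium, had the log2 ratios second most like those of mrc1 among 10512 genes (r = 0.96). That value was chosen after it was seen and carries no test. It includes fish 1, whose log2 ratio for mrc1 was 1.37, against -0.83 to 0.26 in the other fish. No other marker of the list was among the 3 genes most like mrc1 in this way. The log2 ratios of flt4 ran from -0.48 to 0.83, and its log2 change with the lesion was 0.05 (adjusted p = 0.907, edgeR).

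No gene of the lists for scavenger and endocytic receptors (10 tested), granulocytes and lymphocytes (5), erythrocytes (2), neurons (10), oligodendrocytes (5) and radial glia (5) was called with all 10 fish (edgeR). Unadjusted p-values under 0.05 numbered 1 in the first list, 0 in the second, 1 in the third, 2 in the fourth, 1 in the fifth and 0 in the sixth, beside 11.7% of all tested genes. DESeq2 called 1 neuron marker higher, LOC105937083, and none in the other lists, beside 165 higher and 10 lower among all 13392 genes with a count. Among scavenger receptors, LOC105937015, a low-density lipoprotein receptor-related protein 1-like gene whose mammalian counterpart clears many ligands by endocytosis, had a log2 change of 0.11 (adjusted p = 0.401, edgeR), which passed the cutoff without fish 3 at 0.16 (adjusted p = 0.0714, edgeR), and lrp2 one of -0.05 (adjusted p = 0.686, edgeR). The erythrocyte markers hemgn and LOC105928866 (hemoglobin subunit alpha-D-like) had log2 changes of 0.61 (adjusted p = 0.379) and 0.14 (adjusted p = 0.824, both edgeR). Without fish 6 the log2 change of hemgn was 0.90 and passed the cutoff (adjusted p = 0.00459, edgeR). The summed erythrocyte markers were higher in the lesioned hemisphere of 9 fish, with medians of 6.57 CPM in the intact and 9.11 CPM in the lesioned group. Their part in the changes of the copies was not tested.

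The leukocyte genes lck, a kinase of T cells, and ncf1, a subunit of the phagocyte oxidase, had log2 changes of -0.18 (adjusted p = 0.546) and 0.08 (adjusted p = 0.761, both edgeR). For the neuron markers LOC105920195 and LOC105936999 (synaptosomal-associated protein 25-A) the log2 changes were both -0.01 (adjusted p = 0.987 and 0.976, edgeR). For the myelin genes LOC105929404 (myelin proteolipid protein-like) and LOC105933411 they were -0.03 (adjusted p = 0.889 and 0.865, edgeR). For LOC105916686 (glutamine synthetase) and slc1a2, a glutamate transporter of glia, they were 0.02 and 0.03 (adjusted p = 0.923 and 0.868, edgeR). Neuron and myelin markers with an unadjusted p under 0.05 moved further, and are named after their values were seen. The second myelin basic protein entry, mbp, had a log2 change of -0.21 (adjusted p = 0.311, edgeR), lower in 8 fish. LOC105937083 (microtubule-associated protein 2-like) had one of 0.17 (adjusted p = 0.203, edgeR), higher in 9 fish, and rbfox3 one of 0.09 (adjusted p = 0.414, edgeR).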

How the data were processed

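RNA was measured by sequencing in 20 libraries, the intact and lesioned hemispheres of 10 fish. The authors trimmed adapters with cutadapt 1.11 after FastQC 0.11.5, aligned reads with STAR to Fundulus_heteroclitus-3.0.2 and counted reads per gene with HTSeq, and they deposited raw counts without normalization. The strand setting of the counting is not given in the sources used here, and the labels and the study's methods name different library kits. The same table holds columns of the authors' own comparison (a mean normalized signal, a log2 fold change with its error, a test score, a p-value and an adjusted p-value from DESeq2), which were not used.

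Of 16264 deposited entries, 2585 transfer RNA entries (at most 0.00458% of gene counts) were left out. Counts were filtered with filterByExpr (minimum count 10, minimum total 15) and then scaled by TMM over the genes kept. They were tested with edgeR 4.0.16 in R 4.3.3 by the quasi-likelihood F-test with fish and treatment as terms. Calls were made at 0.1, with 0.4 given beside it, adjusted over 10513 genes. DESeq2 1.42.0, other scalings and filters, no fish block, and omission of each fish were the alternatives. Fits were also run on simulated counts with the same scatter for every gene. That setting is simpler than these libraries, so no support is drawn from it. Log2 ratios used CPM with a prior count of 2. Sign-flip tests were exact over 1024 patterns, and correlations used 100000 permutations. Hemispheres of 1 fish deviated together (r from 0.385 to 0.731, against -0.207 to 0.201 for different fish), and the pairing comes from the shared animal.

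Members were chosen by description, with earlier results of these data known when the members and lists were fixed. Named genes were all copies, up to 3 called genes per list or, with fewer called, the 2 of highest CPM as well, and the 3 genes most correlated with each tested copy. Levels of different genes were not compared, since lengths were not analysed here. Sequences of the copies were not analysed here.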

Additional observations from a re-analysis of the deposited data

Results flagged for a closer look

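Of 15 groups of 10 values examined, 3 had a sample far from the others. The rule flags about 1 group in 20 by chance when values are independent and normally distributed. The groups share fish and some hold CPM without a log, so that rate need not hold here. The lesioned hemisphere of fish 7 held LOC105920249 at 28.9 CPM, while the other lesioned hemispheres lay between 3.82 and 16.2 CPM. The intact hemisphere of the same fish was at 16.6 CPM, the second highest of its group.

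The intact hemisphere of fish 5 held LOC105924107 at 3.27 CPM, against 0.361 to 1.85 CPM in the others, and its lesioned hemisphere was also the highest of its group at 2.21 CPM. The log2 ratio of lesioned over intact for mrc1 in fish 1 was 1.37, while it lay between -0.83 and 0.26 in the other fish.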

How the results depend on the processing

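Of 560 alternative values, 512 kept their direction and their side of the threshold and 14 changed sign. Keeping the transfer RNA entries repeated the main values of LOC105920253 exactly, and without the filter its adjusted p was 0.09998 (edgeR), just inside the cutoff. The log2 change of LOC105920253 was negative in all 18 alternatives run and kept its call in 9, both of these among them. Without the replicate block (fish) it was -0.17 (adjusted p = 1.00, edgeR), the copies called for the lesion were 0 in place of 1, and all genes called were 57 in place of 145. With DESeq2 the copies called were 0, all genes called were 175, and the log2 change of LOC105920253 was -0.16. Over the omissions of 1 fish each, the copies called ran from 0 to 1, the log2 change of LOC105920253 from -0.18 to -0.14 and the genes called from 101 to 216. Without the filter the copies called between fish were 4 in place of 2. Signs changed with the fish left out for mrc1 (-0.20 to 0.043), LOC105916686 (-0.0047 to 0.045), LOC105920195 (-0.035 to 0.021), LOC105929404 (-0.056 to 0.0034), LOC105936999 (-0.026 to 0.011), kdr (-0.037 to 0.0016) and slc1a2 (-0.0078 to 0.054), none of them called. The causes were not tested, and each omission also left fewer fish. Other scalings left the median log2 change of all genes between -0.02 and -0.01 and changed the sign or the call of no copy. The planned comparison of neighbours in the order of levels was not run because gene lengths were not analysed here. The number of counts in the table limits the 12 copies below the filter.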
